A study of Mus musculus with 12 samples.

Results

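The 6 cell cycle genes described here are those whose symbol on the array was Ccnd1, Ccne1, Cdkn1a, Cdkn1b, Cdc16 or Mycl1, and they are 6 of the 118 genes the array measured. Their RNA was followed in kidneys of mouse embryos at gestational days 12, 13, 14, 16 and 18, written E12 to E18, by hybridising biotin-labelled RNA copies to 12 chemiluminescent oligonucleotide arrays of Notch signalling genes. There were 3 arrays at E12, 3 at E13 and 2 at each of E14, E16 and E18, and the labels call the arrays of a stage technical replicates. No genotype, strain or treatment was given in the sources used here, nor how many embryos each stage stands for. The p-values below therefore measure the spread between arrays only, apart from those of the line over gestational day. Those measure the scatter of the stage means around that line. Spread between embryos of a stage could not be measured.

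A dividing cell passes from growth into DNA synthesis when cyclins switch on cyclin-dependent kinases. Cyclin D1, the product of Ccnd1, acts first with Cdk4 and Cdk6 and links growth signals to the cycle, and cyclin E1, the product of Ccne1, then acts with Cdk2 at the start of DNA synthesis. Cdkn1a (p21) and Cdkn1b (p27) encode inhibitors that hold these kinases in check as cells stop dividing, Cdc16 encodes a subunit of the anaphase-promoting complex that marks mitotic cyclins for destruction, and Mycl1, now named Mycl, encodes L-Myc, a transcription factor of the Myc family. The embryonic kidney grows by division of nephron progenitors, branching ureteric epithelium and stroma, while cells that build nephrons leave the cycle in turn.

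Each member had 1 probe. Ccnd1, Ccne1, Cdkn1a, Cdc16 and Mycl1 were above background, set at 2 SD over the average of the 6 negative-control spots, on 12 of 12 arrays and were tested, and Cdkn1b was above it on 4 of 12 and was not tested. Of 16 kidney marker genes listed for a check of the tissue label (Six2, Wt1 and Pax2 among them), 0 were on the array, so the label could not be checked by its defining genes. The median gene signal per array was 4318.5 to 9617, or between 2.69 and 7.93 in units of that array's average negative control. In bulk RNA, fewer cells that express a gene and less of its RNA per cell cannot be told apart.

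The promoters of Ccne1 and Mycl1 are shown because these 2 genes had the lowest p-values of the members in the later stages. Each is the 250 bases before the RefSeq start in GRCm38.p6, at chr7:38107491-38107740 on the minus strand for Ccne1 and at chr4:122995681-122995930 on the plus strand for Mycl1 (RefSeq Mycl), read 5′ to 3′ along the gene. Capitals mark matches on either strand to the GC box (GGGCGG), to a core of the E2F site (TCCCGC) and to the TATA box (TATAAA).
Ccne1: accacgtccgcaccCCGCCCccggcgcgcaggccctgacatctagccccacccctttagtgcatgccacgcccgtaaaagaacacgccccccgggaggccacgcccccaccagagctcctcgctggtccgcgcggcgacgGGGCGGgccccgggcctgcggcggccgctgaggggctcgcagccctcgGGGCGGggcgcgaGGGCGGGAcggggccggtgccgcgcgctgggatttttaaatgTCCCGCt
Mycl1: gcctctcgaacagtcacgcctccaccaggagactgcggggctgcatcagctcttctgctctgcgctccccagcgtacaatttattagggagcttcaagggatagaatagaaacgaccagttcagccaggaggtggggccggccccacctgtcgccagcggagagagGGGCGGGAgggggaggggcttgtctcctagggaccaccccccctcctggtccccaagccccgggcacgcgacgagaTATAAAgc

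E2F factors are the transcription factors that the D and E cyclins release from the retinoblastoma protein. The Ccne1 window held the E2F core at 2 places, -47 to -42 on the minus strand and -7 to -2 on the plus strand, counted from the start of transcription, and the GC box at 4 places. The Mycl1 window held 1 E2F core at -82 to -77 on the minus strand and 1 GC box. Its 1 match to the TATA box letters was at -8 to -3 on the plus strand. In both windows 1 E2F match overlapped a GC box. Over all 32851 RefSeq promoter windows of this length, 16.9% held the E2F core, 32.7% the GC box and 12.4% the TATA box. G and C made up 76.0% of the Ccne1 window and 63.6% of the Mycl1 window, against a median of 52.4% over all windows. The shares were not adjusted for this. No window was available for Ccnd1, so its promoter was not searched. The Cdc16 window held 1 E2F core, and 0 matches to it were found in the 2 Cdkn1a windows and the Cdkn1b window. A search for the core recognised by Rbpj, the DNA-binding partner of Notch (TGGGAA, on 21.6% of windows), matched only 1 of these 6 windows, the second of Cdkn1a, and the Myc-type E-box (CACGTG, on 6.02%) matched 0 of the 6. These matches describe letters and were not tested as binding sites.

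Ccne1 had its lowest stage mean at E18. The deposited signal was 21952, 21970 and 39109 at E12, 23918, 29229 and 39768 at E13, 23513 and 32635 at E14, 23973 and 24654 at E16, and 15479 and 23483 at E18. Arrays differed in brightness, so levels were compared after background correction and quantile normalization, on the log2 scale. On that scale Ccne1 was at 14.82 ± 0.17 (SD, n = 3) at E12, 14.72 ± 0.13 (SD, n = 3) at E13, 14.72 ± 0.05 (SD, n = 2) at E14, 14.55 ± 0.35 (SD, n = 2) at E16 and 14.09 ± 0.15 (SD, n = 2) at E18. The E18 arrays were at 13.98 and 14.19, and the lowest of the 10 earlier arrays, E16 replicate 2, was at 14.30. E16 replicate 1 was at 14.80, among the E12 to E14 arrays. In the deposited signal, E18 replicate 2 (23483) lay above E12 replicates 1 and 2 (21952 and 21970). After normalization Mycl1 was likewise lowest on the 2 E18 arrays, at 10.57 and 10.91, against 10.96 on E14 replicate 2. So was Cdkn1b, which was not above background on either of them. How many further genes of the array were lowest on both E18 arrays was not counted.

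**Figure D1:**
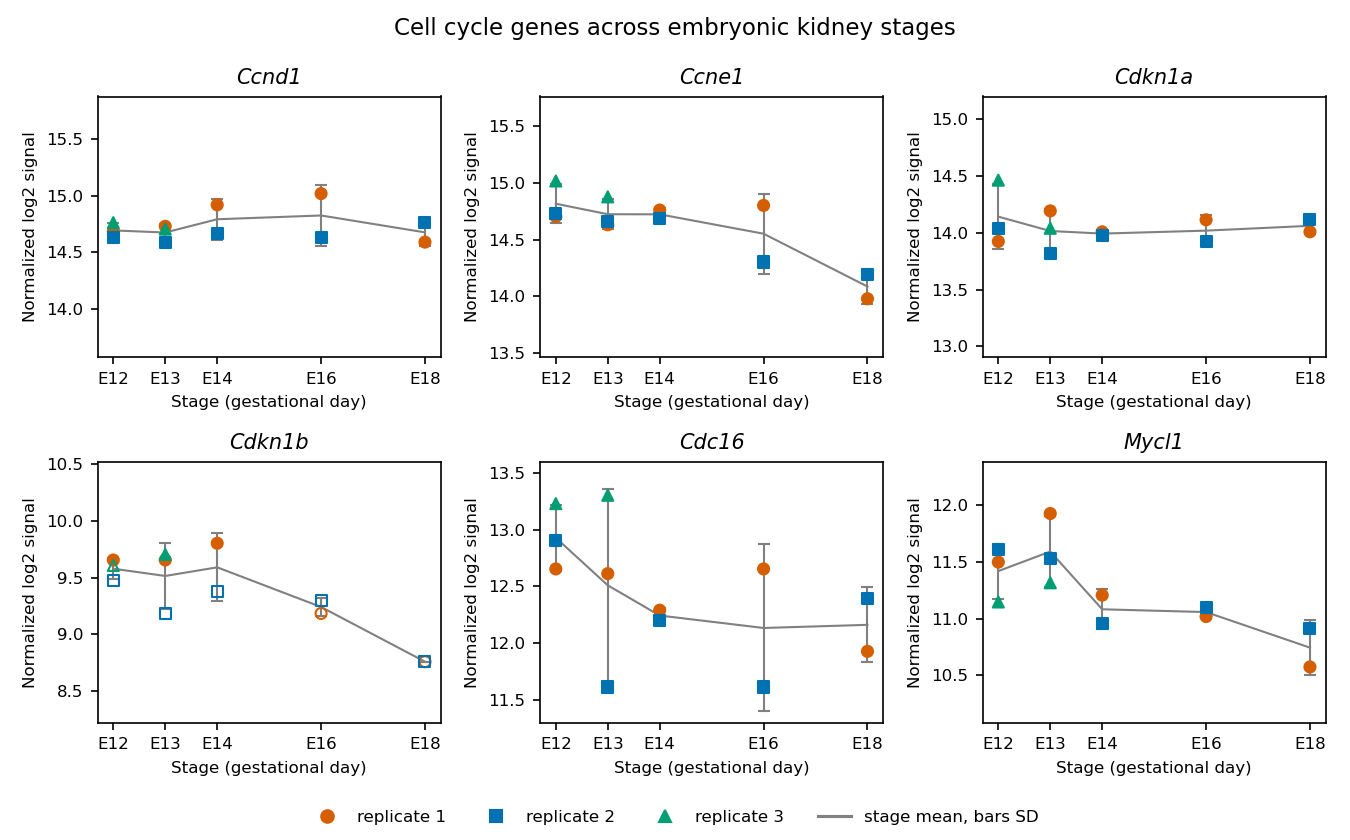
Normalized log2 signal of the 6 genes (vertical axis) by stage (horizontal axis, gestational day), with 1 point per array, coloured by replicate number, and the stage mean with SD bars in grey. Open points are arrays on which the gene was not above background. Every panel spans the same height, and Ccne1 has its lowest mean, 14.09, at E18. The stage means span 0.73 log2 units for Ccne1, 0.85 for Mycl1, 0.80 for Cdc16 and 0.15 for each of Ccnd1 and Cdkn1a.

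Ccnd1 and Cdkn1a, bright spots on every array, had nearly level stage means after quantile normalization. Ccnd1 was at 14.69 ± 0.07 (SD, n = 3) at E12, 14.67 ± 0.07 (SD, n = 3) at E13, 14.79 ± 0.18 (SD, n = 2) at E14, 14.82 ± 0.27 (SD, n = 2) at E16 and 14.67 ± 0.12 (SD, n = 2) at E18. Cdkn1a was at 14.14 ± 0.28 (SD, n = 3) at E12, 14.02 ± 0.19 (SD, n = 3) at E13, 13.99 ± 0.02 (SD, n = 2) at E14, 14.02 ± 0.13 (SD, n = 2) at E16 and 14.06 ± 0.07 (SD, n = 2) at E18. The 5 stage means of each gene spanned 0.15 log2 units, against a pooled SD between arrays of a stage of 0.14 for Ccnd1 and 0.19 for Cdkn1a. With arrays scaled to their medians instead, the stage means spanned 0.56 for Ccnd1 and 0.59 for Cdkn1a, and E18 minus E12 was -0.56 and -0.59, where the median of all genes was -0.44.

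Mycl1 was a dim spot whose normalized levels were higher at E12 and E13 than later. The deposited signal was 4214, 3339 and 2450 at E12, 7798, 2533 and 2632 at E13, 3573 and 2114 at E14, 3725 and 2598 at E16, and 4602 and 2462 at E18. Relative to the mean negative control of the same array these signals were 1.32 to 3.83, lowest on E18 replicate 1. After normalization Mycl1 was at 11.42 ± 0.24 (SD, n = 3) at E12, 11.59 ± 0.31 (SD, n = 3) at E13, 11.08 ± 0.18 (SD, n = 2) at E14, 11.06 ± 0.06 (SD, n = 2) at E16 and 10.74 ± 0.24 (SD, n = 2) at E18. The 4 arrays of E16 and E18 lay at 10.57 to 11.10 and the 6 arrays of E12 and E13 at 11.15 to 11.93, so the 2 sets did not overlap. They did overlap in the authors' deposited ratios to Ppia (0.0531 to 0.0678 late, 0.0529 to 0.159 early), with housekeeping scaling and with no normalization.

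Cdc16 varied most between arrays of a stage. Its deposited signal was 6776, 5577 and 9905 at E12, 10427, 2643 and 11875 at E13, 5687 and 6036 at E14, 7008 and 3096 at E16, and 7379 and 7969 at E18. The lowest values, on E13 replicate 2 and E16 replicate 2, were both at 11.61 after normalization, beside 12.61 and 13.30 on the other E13 arrays and 12.65 on the other E16 array. Its stage mean was 12.93 ± 0.29 (SD, n = 3) at E12, 12.51 ± 0.85 (SD, n = 3) at E13, 12.24 ± 0.07 (SD, n = 2) at E14, 12.13 ± 0.74 (SD, n = 2) at E16 and 12.16 ± 0.33 (SD, n = 2) at E18. The pooled SD between arrays of a stage was 0.57, and the stage means spanned 0.80.

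Cdkn1b was at background on most arrays. Its deposited signal was 1720, 1602 and 1079 at E12, 3496, 956 and 1160 at E13, 2143 and 750 at E14, 2084 and 970 at E16, and 3304 and 770 at E18. It exceeded the background limit on 1 of 3 arrays at E12, 2 of 3 at E13, 1 of 2 at E14 and 0 of 4 at E16 and E18, and was 0.787 to 1.57 times the mean negative control. These values are bounds, and no fold is given.

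**Figure D2:**
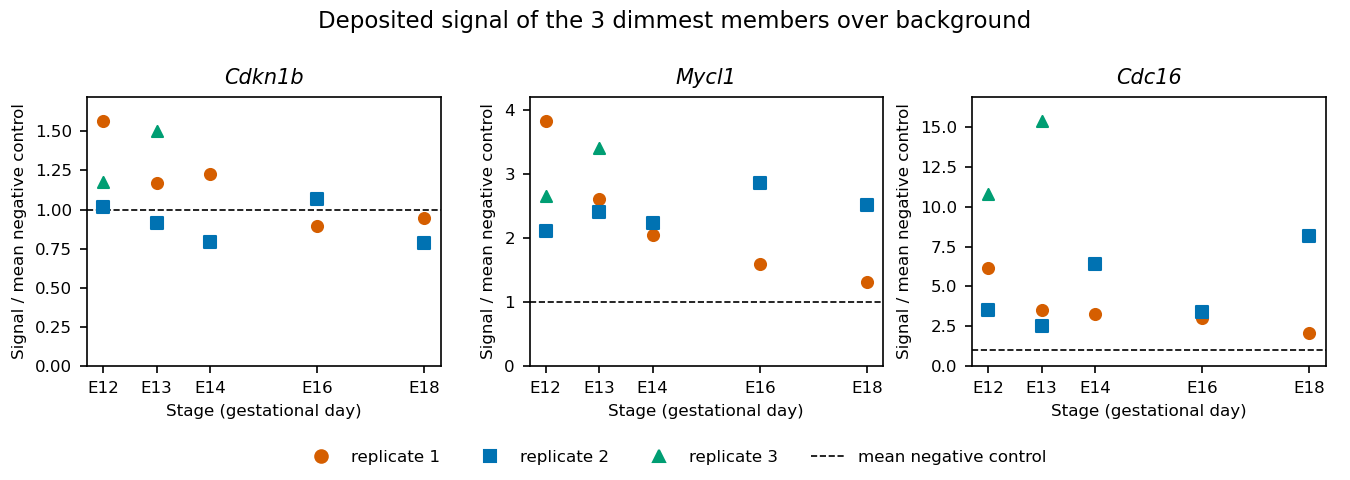
Deposited signal divided by the mean of the 6 negative-control spots of the same array (vertical axis, from 0, a separate scale in each panel) by stage (horizontal axis) for the 3 dimmest genes, 1 point per array. The dashed line is the mean negative control: Cdkn1b lies around it (0.787 to 1.57), Mycl1 lies at 1.32 to 3.83 and Cdc16 at 2.11 to 15.4.

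The late stages, E16 and E18, were then set against the early ones, E12 and E13, as a contrast of stage means in limma over all 12 arrays. Of the 5 members tested, 0 passed the adjusted threshold of 0.05, where 3.77% of the 106 genes tested did. Mycl1 differed by -0.60 log2 units (SE 0.15, 95% confidence interval -0.95 to -0.25, limma adjusted p = 0.0549), a fold of 1.52 from a mean of 11.51 to 10.90. Ccne1 differed by -0.45 (SE 0.13, interval -0.74 to -0.16, limma adjusted p = 0.0703), a fold of 1.37 from 14.77 to 14.32. These were the 2 members with an unadjusted p under 0.05, beside 17.0% of all genes, and both were lower, as were 10.4% of all genes at that level. Cdc16 differed by -0.57 with a wider error (SE 0.34, interval -1.34 to 0.19), and its 4 late arrays overlapped the 6 early ones.

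Ccnd1 differed by 0.07 (SE 0.11, interval -0.17 to 0.31) and Cdkn1a by -0.04 (SE 0.13, interval -0.33 to 0.26). Both intervals span 0, so a difference in either direction within these bounds is compatible with the data. The median difference of the 5 members was -0.45, beside 0.04 over all genes tested, and 4 of 5 members were below 0, as were 42.5% of all genes. Mycl1 was the 1 member whose late arrays all lay below its early ones, which held for 5.66% of all genes. An exact permutation test over the 210 regroupings of these 10 arrays, 2-sided, gave p = 0.00952 for Mycl1 and p = 0.0238 for Ccne1 (adjusted over all genes, 0.126 and 0.21). It regrouped single arrays, although those of a stage are technical replicates, so the stage was not its unit. The low value for Mycl1 follows from the lack of overlap just given and is no separate evidence.

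The calls turned on the error model, on blocking by replicate number and on single arrays. With the replicate number as a block, Mycl1 passed (difference -0.74, limma adjusted p = 0.0456) and Ccne1 did not. When the prior spread was allowed to vary with mean signal, Ccne1 had a limma adjusted p of 0.0153 and Mycl1 of 0.177. Ccne1 also passed without E16 replicate 1 (difference -0.57, limma adjusted p = 0.0431), and Mycl1 without E13 replicate 3 (difference -0.68, limma adjusted p = 0.039). Over all alternatives the adjusted p ran from 0.0153 to 0.635 for Ccne1 and from 0.039 to 0.635 for Mycl1. Background differed between the arrays, and E18 replicate 1, E13 replicate 1 and E16 replicate 1 had the highest mean negative controls (3495, 2985 and 2324, against 772.5 to 1745 on the others). Without these 3 arrays Mycl1 differed by -0.40 (limma adjusted p = 0.426) and Ccne1 by -0.54 (limma adjusted p = 0.18). Within replicate number 1 alone Mycl1 differed by -0.92 and Ccne1 by -0.28, and within replicate number 2 alone by -0.57 and -0.45. The part of background in these differences was not tested.

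**Figure D3:**
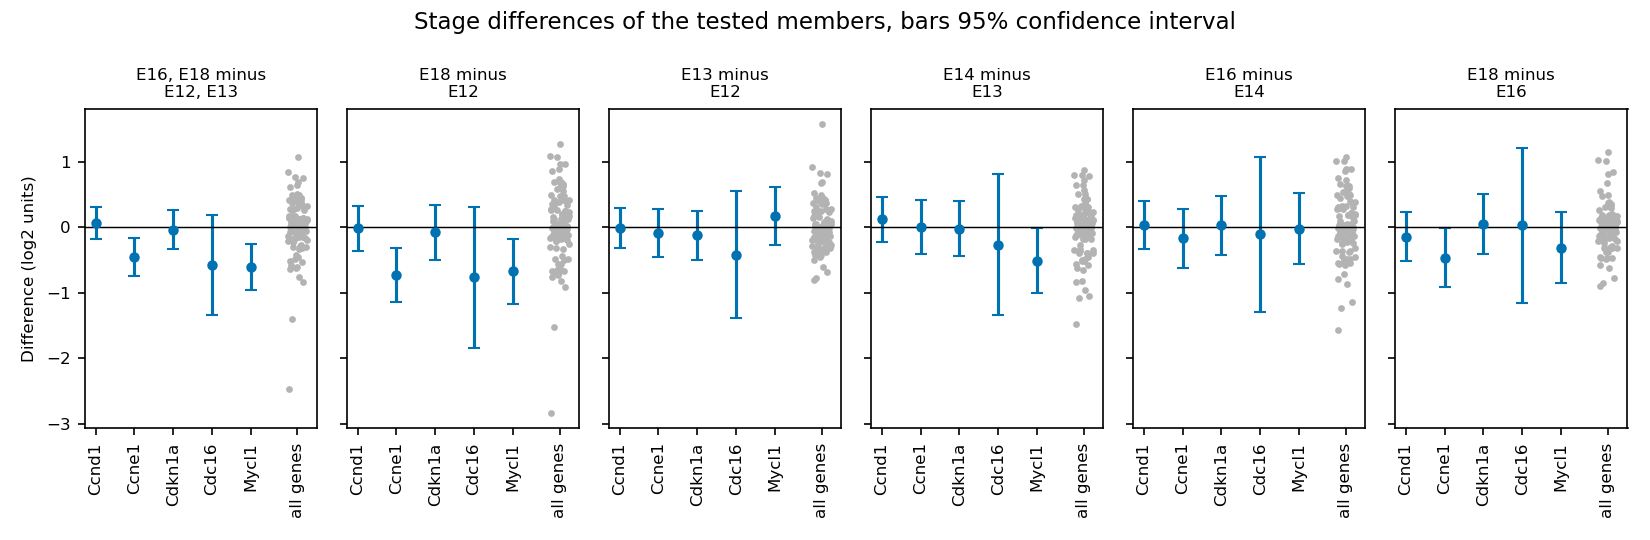
Differences between stages on the log2 scale (vertical axis) for the 5 members tested, as blue points with 95% confidence intervals from limma, 1 panel per comparison. Grey points are all 106 genes tested. In the panel of late minus early stages, the intervals of Ccne1 (-0.74 to -0.16) and Mycl1 (-0.95 to -0.25) lie below 0, those of Ccnd1, Cdkn1a and Cdc16 span it, and 0 members pass after adjustment.

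**Figure D4:**
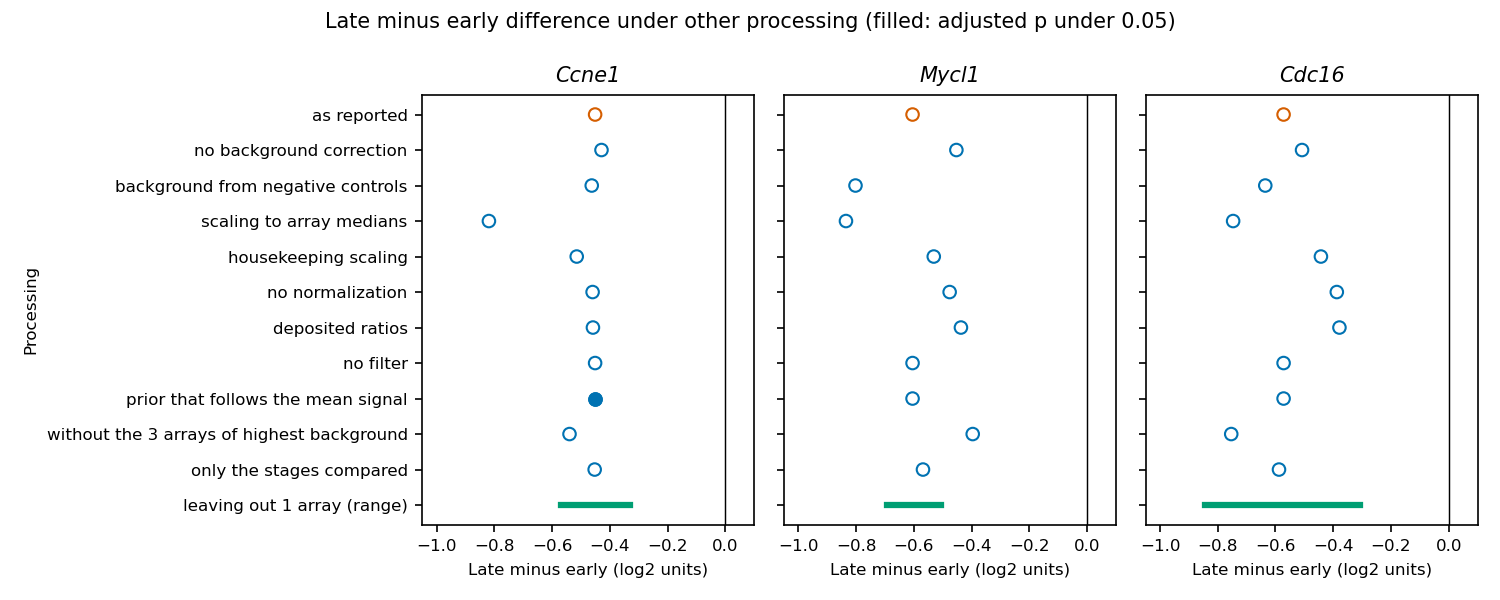
Late minus early difference in log2 units (horizontal axis) of Ccne1, Mycl1 and Cdc16 as reported and under other ways of processing (vertical axis). Filled points have an adjusted p under 0.05, orange marks the value as reported, and the green bar is the range over the fits that leave out 1 array. All values lie below 0, from -0.82 to -0.33 for Ccne1.

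Ccne1 and Ccnd1 were also compared within each array, since the ratio of 2 bright spots of the same membrane does not depend on how arrays are scaled. The ratio of the deposited Ccne1 signal to that of Ccnd1 was 1.00, 1.07 and 1.12 at E12, 0.967, 1.06 and 1.09 at E13, 0.891 and 1.01 at E14, 0.833 and 0.791 at E16, and 0.642 and 0.70 at E18. The 4 late arrays lay below the 6 early ones, and both E18 arrays lay below both E16 arrays. The mean was 1.05 ± 0.06 (SD, n = 6) early and 0.741 ± 0.087 (SD, n = 4) late. The log2 ratio differed by -0.51, and by -0.56 after the mean negative control was subtracted from both signals. Of the 105 other genes tested, 3.81% had a ratio to Ccnd1 whose late arrays all lay below the early ones. All 10 pairs of the 5 tested members were computed, and in the other 9 the late and early arrays overlapped. These ratios were examined after the values were seen, so they are given as a description with no test, and that of Ccne1 to Ccnd1 shows unequal change of the 2 signals, not which of them changed. Since the probes differ, it is no ratio of RNA amounts.

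The ratio of Ccne1 to Cdkn1a, a cyclin to a kinase inhibitor, was 1.28 to 1.80 on the early arrays and 0.985 to 1.61 on the late ones. Its lowest values, 0.985 and 1.03, were those of E18, and E16 replicate 1 at 1.61 lay among the early arrays, so the sets overlapped. The ratio of Ccnd1 to Cdkn1a was 1.28 to 1.69 early and 1.47 to 1.93 late and also overlapped.

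**Figure D5:**
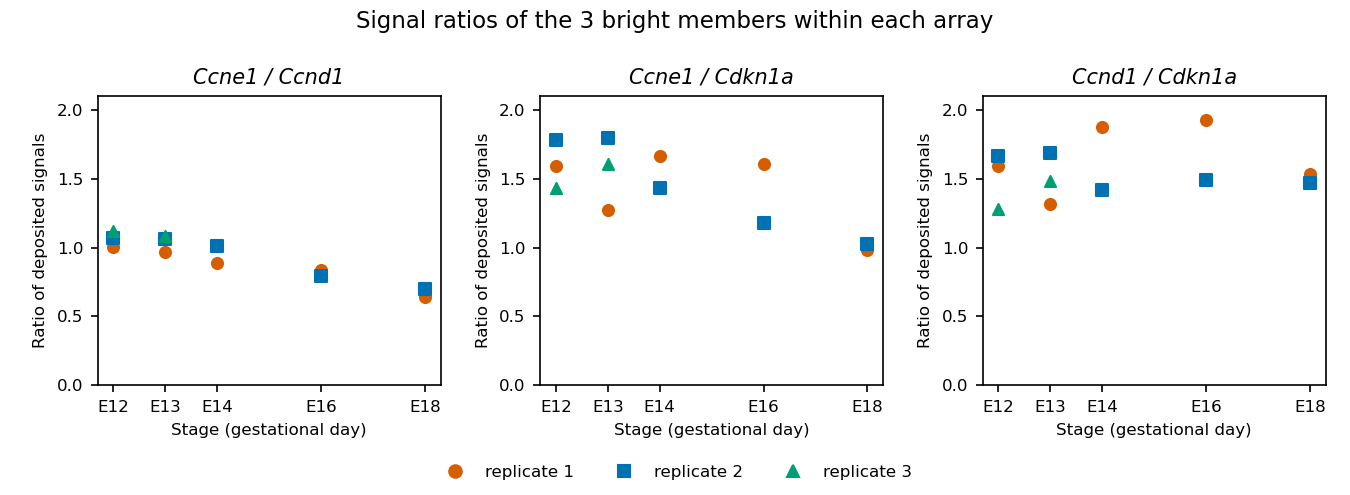
Ratio of the deposited signals of 2 genes on the same array (vertical axis, from 0) by stage (horizontal axis), 1 point per array, for the 3 bright members. The Ccne1 to Ccnd1 ratio lies at 0.967 to 1.12 on the E12 and E13 arrays and at 0.642 to 0.833 on the E16 and E18 arrays, while the other pairs overlap between these stages.

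Between successive stages, 0 of 5 members passed the adjusted threshold at each step. From E12 to E13 no member had an unadjusted p under 0.05 (4.72% of all genes did, and 0.0% passed after adjustment), and the largest difference was that of Cdc16, at -0.42 (SE 0.42). From E13 to E14 Mycl1 differed by -0.51 (SE 0.22, limma adjusted p = 0.825), with both E14 arrays below all 3 E13 arrays, as in 9.43% of all genes, while Ccne1 differed by -0.0009 (SE 0.18). Mycl1 was the 1 member with an unadjusted p under 0.05 at this step, beside 5.66% of all genes (0.0% after adjustment).

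From E14 to E16 the differences ran from -0.17 for Ccne1 (SE 0.20) to 0.03 for Ccnd1 (SE 0.16), none with an unadjusted p under 0.05 (7.55% of all genes, and 0.943% after adjustment). From E16 to E18 Ccne1 differed by -0.47 (SE 0.20, limma adjusted p = 1), with an unadjusted p of 0.0435, and Mycl1 by -0.31 (SE 0.24). At this step 3.77% of all genes had an unadjusted p under 0.05, and 0.0% passed after adjustment. For both genes the 2 E18 arrays lay below the 2 E16 arrays, as they did for 8.49% of all genes. Without E16 replicate 1 the Ccne1 difference was -0.41 from E14 to E16 and -0.22 from E16 to E18, and without the 3 arrays of highest background -0.40 and -0.13, so the step at which Ccne1 was lower is not fixed by these arrays. Leaving out 1 array moved the E16 to E18 difference to between -0.73 and -0.22 for Ccne1 and between -0.48 and -0.13 for Mycl1, the latter weakest without E18 replicate 1.

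By stage mean, the order of Ccne1 from highest to lowest was E12, E13, E14, E16 and E18, and Mycl1 was highest at E13, then E12, E14, E16 and E18. E12 and E14, neighbours in the order of Mycl1, were not compared, and no other neighbours in the 2 orders differed past the adjusted threshold. Set against E12, E18 differed by -0.73 for Ccne1 (SE 0.18, limma adjusted p = 0.065), -0.68 for Mycl1 (SE 0.22, limma adjusted p = 0.126) and -0.77 for Cdc16 (SE 0.47, limma adjusted p = 0.517). Both E18 arrays lay below all 3 E12 arrays for these 3 genes, and 16.0% of all genes were separated in that way. Here 0 of 5 members passed, beside 1.89% of all genes, and Ccne1 and Mycl1 had an unadjusted p under 0.05, beside 17.0%. Ccne1 passed without E16 replicate 1 (limma adjusted p = 0.0295) or replicate 2 (limma adjusted p = 0.0351) and with the signal-dependent prior (limma adjusted p = 0.012). In the other direction, its limma adjusted p was 0.446 without E18 replicate 1, 0.391 with housekeeping scaling, 0.503 with the deposited ratios and 0.751 with no normalization. The E18 minus E12 difference of Cdc16 was -0.32 with housekeeping scaling, -0.26 in the deposited ratios and -0.14 with no normalization. Ccnd1 differed by -0.02 (SE 0.15, interval -0.36 to 0.32) and Cdkn1a by -0.08 (SE 0.18, interval -0.50 to 0.34).

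A line over gestational day, for which limma took each of the 5 stage means as 1 point, had a slope of -0.12 log2 units per day for Mycl1 (SE 0.03, limma adjusted p = 0.155) and -0.11 for both Ccne1 (SE 0.03, limma adjusted p = 0.117) and Cdc16 (SE 0.04, limma adjusted p = 0.232). None of the 5 members passed, beside 1.89% of all genes, and these 3 were the members with an unadjusted p under 0.05, beside 17.0% of all genes and 9.43% that were lower at that level. The slopes of Ccnd1 and Cdkn1a were 0.00 (SE 0.02) and -0.01 (SE 0.02). With the signal-dependent prior, the slope of Ccne1 passed (limma adjusted p = 9.4e-05), and over all alternatives its adjusted p reached 0.514. Leaving out 1 array or stage took the slope to between -0.13 and -0.0628 for Ccne1 and between -0.19 and -0.0616 for Cdc16, and with no normalization Cdc16 was at -0.0494. In the F test over the 5 stages 0 of 5 members passed, beside 0.943% of all genes, and Ccne1 and Mycl1 had unadjusted p of 0.0251 and 0.026 (limma adjusted p = 0.306 for both), beside 11.3% of all genes under 0.05. With the same prior the F test called Ccne1 (limma adjusted p = 0.0243).

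Further genes of the cell cycle were few on this array. Of 29 listed genes (among them Ccnb1, Cdk1, Mki67, Pcna, Myc and Mycn) 1 was present. This was Stil, needed for centriole duplication, which differed by -0.27 late minus early (SE 0.18, limma adjusted p = 0.511). Proliferation itself therefore could not be read from its usual markers. Of 20 regulators known to act on the members, all 20 were on the array and 19 were tested; 1 was higher and 0 were lower, beside 3.77% of all genes past the threshold, and their median difference was 0.13 beside 0.04 over all genes.

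The regulator that rose was Fos, an immediate early transcription factor of the AP-1 family that can activate Ccnd1, from 12.18 early to 13.25 late, a difference of 1.07 (SE 0.23, limma adjusted p = 0.0382). This call was made in 5 of 23 other settings, where its value ran from 0.78 to 1.34 and its adjusted p from 0.00459 to 0.20. It was lost with housekeeping scaling, with array medians, with no normalization, in the deposited ratios and without the 3 arrays of highest background, among others. The next by p-value did not pass. Gli3, Gli1 and Gli2, transcription factors of Hedgehog signalling, differed by -0.51 (SE 0.13, limma adjusted p = 0.0549), -0.43 (SE 0.16, limma adjusted p = 0.164) and -0.31 (SE 0.12, limma adjusted p = 0.193). Pparg, a nuclear receptor that promotes fat cell differentiation, differed by 0.84 (SE 0.22, limma adjusted p = 0.0549).

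The genes whose levels over the 12 arrays were most like those of the members were found by Pearson's r of the normalized log2 signal, which is across arrays that share scaling and background. For Ccne1 they were Gli3 (r = 0.78), Gli2 (r = 0.74) and Hes6 (r = 0.72), the last a helix-loop-helix factor. For Cdc16 they were Gli1 (r = 0.90), Hes6 (r = 0.68) and Gli2 (r = 0.68), and for Mycl1 Il17b (r = 0.81), Hes6 (r = 0.69) and Krt1 (r = 0.62). For Cdkn1a they were Cdc16 (r = 0.66), Dtx2 (r = 0.65) and Gli1 (r = 0.65), and for Ccnd1 Aph1a (r = 0.53), Adam17 (r = 0.51) and Fzd6 (r = 0.49). Over all pairs of tested genes the median r was -0.01 and the middle 50% lay between -0.26 and 0.24. The genes named for each member were picked for the highest r, so their high values are in part due to that selection. The range over all pairs therefore cannot show whether they are exceptional. The r that such a pick reaches by chance was not tested. Among the members, r was 0.66 for Cdkn1a with Cdc16, 0.64 for Ccne1 with Cdc16, 0.51 for Ccne1 with Mycl1 and 0.39 for Ccnd1 with Ccne1. It was 0.38 for Ccnd1 with Cdkn1a, and 0.33 both for Ccne1 with Cdkn1a and for Ccnd1 with Cdc16. With Mycl1 it was 0.27 for Cdc16, -0.02 for Cdkn1a and -0.09 for Ccnd1.

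Markers of other cell types were followed beside the members. Of 6 epidermal genes, all tested, 5 were below 0 in the late minus early difference, with a median of -0.46, and 2, the keratin Krt1 and the cornified-envelope gene Lor, passed and were lower, at 11.31 and 11.85 late against 12.08 and 13.26 early. Krt1 passed in 18 and Lor in 15 of 23 other settings, and neither did without the 3 arrays of highest background, with housekeeping scaling, with no normalization or in the deposited ratios. The summed signal of all 6 epidermal genes above the mean negative control was 32158 to 44056 at E12 and E13, 24826 to 47709 at E14 and 15891 to 36287 at E16 and E18. Krt1, Krt10, Krt14 and Lor were above background on 12 of 12 arrays, Krt5 on 10 and Ivl on 5. The 4 tested blood genes had a median of 0.07 and the 2 endothelial genes one of 0.18, with 0 past the threshold in either list. The part of these markers in the levels of Mycl1 and Ccne1 was not tested.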

How the data were processed

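The authors deposited spot intensities (a signal column per the file headers) as 1 whole number per spot from chemiluminescent images, per the series' design text. Negative controls lay well above 0, so the intensities were taken as not background-subtracted. A deposited table of ratios was, as a check of its values showed, the signal less the lowest spot, divided in the same way by the mean of both Ppia spots. No source used here names the software that read the images.

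Intensities were background-corrected with normexp (offset 50), put on the log2 scale and quantile-normalized over the 120 gene spots, and spots of a gene were averaged. A gene was tested if it was above background on every array of any 1 stage, which left 106 of 118 genes. limma 3.58.1 in R 4.3.3 fitted 1 mean per stage over all 12 arrays, with Benjamini-Hochberg adjustment over all genes tested, a threshold of 0.05 and 2-sided tests, and was tested on simulated data. Exact permutation tests were computed with numpy 2.4.6 in Python 3.11.15. The members and lists were chosen with earlier results of these data known. All 6 members were named, with the 3 genes most alike each, and from each list those past the threshold and up to 4 more by p-value. Same-numbered arrays of E12 and E13 deviated together in 3 of 3 pairs (r = 0.122 to 0.222, from the labels' replicate numbers), and blocking changed no call between them. The alternatives were other background corrections, scalings, filters and priors, the deposited ratios, the replicate number as a block, and leaving out arrays.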

Additional observations from a re-analysis of the deposited data

How the results depend on the processing

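With 2 or 3 technical arrays a stage, biological spread could not be measured, and the signal of Cdkn1b, near the negative controls, allows bounds only. As reported, 0 members passed in each of the 8 comparisons. Late minus early differences of Ccne1, Mycl1 and Cdc16 were below 0 in all 24 alternatives each (-0.82 to -0.33, -0.84 to -0.40 and -0.85 to -0.30). Some of these, such as the signal-dependent prior, the permutation test and the fit with no filter, leave the difference as reported and could not turn its sign. Replicate numbers were also tried as a block, which gave 1 member late minus early, Mycl1 (-0.74, limma adjusted p = 0.0456). Same-numbered arrays of other stage pairs deviated together (r over 0.1) in 5 of 18 cases (-0.378 to 0.367). In a stage of 2 arrays the deviations mirror each other, so these cases are not independent. They cannot tell whether the replicate numbers pair the arrays. The signal-dependent prior gave 1 member, Ccne1, in late minus early, E18 minus E12, the F test and the trend. Leaving out 1 array gave 0 to 1 members for late minus early (Mycl1 without E13 replicate 3, Ccne1 without E16 replicate 1, and Cdkn1b without E13 replicate 2, which then entered only through its E13 arrays and is no test of a change) and 0 to 1 for E18 minus E12 (Ccne1). Over all genes, late minus early had 4 calls as reported, 8 with that prior, 2 with array medians, 1 without normalization and 0 with housekeeping scaling, with the deposited ratios and when the 3 arrays with the highest negative controls were left out, and 1 to 6 leaving out 1 array. For E18 minus E12 the counts were 2 as reported, 4 with that prior, 3 with background from negative controls, 1 with array medians, 0 to 7 leaving out 1 array, and 0 with no filter, housekeeping scaling, the deposited ratios, no normalization, the block, only the stages compared or without those 3 arrays. The F test had 1 call as reported, 6 with that prior and 0 to 3 otherwise, and the trend 2, 12 and 0 to 3. The steps between successive stages had 0 or 1 as reported and 0 to 2 otherwise. The cause of these changes was not tested.

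No member passed as reported, so every sign that turned belonged to a difference that did not pass the threshold. Scaling to array medians moved the late minus early median of all genes from 0.04 to -0.27, and gave Ccnd1 -0.27 late minus early, -0.11 for E14 minus E13 and a slope of -0.0773, Mycl1 -0.0151 for E13 minus E12 and 0.13 for E16 minus E14, and Cdkn1a -0.38 for E18 minus E16. Housekeeping scaling gave, for E13 minus E12, Ccnd1 0.0436, Ccne1 0.00635 and Cdkn1a 0.0621, for E16 minus E14, Cdkn1a -0.0151 and Mycl1 0.0535, for E18 minus E16, Cdkn1a -0.0448, and a Ccnd1 slope of -0.00377. No normalization gave, for E18 minus E12, Ccnd1 0.13 and Cdkn1a 0.0977, for E13 minus E12, Ccnd1 0.20, Ccne1 0.17 and Cdkn1a 0.22, and for E16 minus E14, Cdkn1a -0.0451 and Mycl1 0.0235. The deposited ratios gave Ccnd1 0.00409 for E18 minus E12, Cdkn1a 0.0132 and Mycl1 -0.0154 for E13 minus E12, and Mycl1 0.10 for E16 minus E14. The replicate block gave Cdkn1a 0.0475 late minus early, for E18 minus E12, Ccnd1 0.00737 and Cdkn1a 0.0054, for E14 minus E13, Ccne1 0.0875, Cdc16 0.00738 and Cdkn1a 0.0635, and a Cdkn1a slope of 0.00892. Without the 3 arrays with the highest negative controls, Ccnd1 was 0.0603 for E18 minus E12, -0.16 for E16 minus E14 and 0.12 for E18 minus E16, Cdkn1a was 0.0791 for E14 minus E13 and -0.0704 for E16 minus E14 with a slope of 0.00209, and Mycl1 was 0.0159 for E16 minus E14.

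Leaving out 1 array or stage, late minus early ran from -0.0276 to 0.16 for Ccnd1 and -0.0931 to 0.0387 for Cdkn1a. E18 minus E12 ran from -0.107 to 0.0677 for Ccnd1 and -0.19 to 0.0819 for Cdkn1a. E13 minus E12 ran from -0.0495 to 0.0205 for Ccnd1, -0.24 to 0.0427 for Cdkn1a, -0.17 to 0.0102 for Ccne1 and -0.80 to 0.0253 for Cdc16. E14 minus E13 ran from -0.0144 to 0.25 for Ccnd1, -0.12 to 0.0682 for Cdkn1a, -0.0472 to 0.0775 for Ccne1 and -0.67 to 0.15 for Cdc16. E16 minus E14 ran from -0.16 to 0.23 for Ccnd1, -0.0672 to 0.13 for Cdkn1a, -0.41 to 0.0796 for Ccne1, -0.64 to 0.40 for Cdc16 and -0.14 to 0.0992 for Mycl1. E18 minus E16 ran from -0.34 to 0.0414 for Ccnd1, -0.0563 to 0.13 for Cdkn1a and -0.47 to 0.56 for Cdc16. Slopes ran from -0.00879 to 0.0383 for Ccnd1 and -0.0252 to 0.0111 for Cdkn1a.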
